A study of Mus musculus with 24 samples.

Results

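Protocadherins are cadherin-related adhesion proteins of the cell surface, and the 36 measured here are the gene identifiers whose symbol begins with Pcdh, of 37991 in the count tables. They were compared between cerebella of young adult and aged mice. All 4 libraries came from male mice of the inbred strain C57BL/6J, 2 at 7 weeks of age and 2 at 79 weeks, with no genetic change or treatment named in the labels. The series has 24 samples, and the 20 that profile modified cytosines in cerebellar or cortical DNA were not analysed here. Nothing in the labels ties the libraries of an age to different animals, so a p-value speaks only of the spread among these libraries, part of which may be technical.

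Clustered protocadherins lie in tandem arrays called alpha, beta and gamma. Each neuron uses a small, largely random choice of their promoters, bound by the factor CTCF and joined to enhancers by cohesin, and the chosen proteins bind matching sets on other cells or on the neuron's own branches. Variable exons of alpha and gamma genes are spliced to shared constant exons, whereas each beta gene encodes its whole protein in a single exon. Non-clustered protocadherins are separate genes, grouped as delta-1 and delta-2 by their cytoplasmic tails, and several delta-2 proteins recruit the WAVE complex, which builds branched actin.

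The 36 identifiers were 22 beta genes, 1 alpha identifier, 1 gamma identifier and 12 non-clustered genes. The name table listed 70 identifiers with a Pcdh symbol. Of its 14 alpha and 22 gamma identifiers, 13 and 21 matched no identifier of the count tables and were not analysed here. The alpha identifier ENSMUSG00000007440, listed as Pcdha11, and the gamma identifier ENSMUSG00000023036, listed as Pcdhgc4, are therefore given as identifiers. Whether their reads also come from the other variable exons or from the shared constant exons of their cluster cannot be told from the files.

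The libraries held 16367656 to 22826993 gene counts. Levels are CPM, read counts relative to library size scaled by TMM. They are not corrected for gene length, so they are compared between ages and not between genes. Of the 36 identifiers, 35 had enough reads for a test, among 15292 genes, by edgeR's quasi-likelihood test, with Benjamini-Hochberg adjustment over all of them and a threshold of 0.05. Gabra6, a receptor subunit gene of cerebellar granule neurons, stood at 591 to 888 CPM, so the defining marker of the labelled tissue was present in each library. Libraries differed in other tissue: 14 markers of choroid plexus, which makes cerebrospinal fluid, summed to 5464 CPM in 79-week replicate 1 and to 18.3 to 42.6 CPM in the other libraries. Markers of meninges and fibroblasts summed to 344 CPM in 79-week replicate 1 and to 153 to 191 CPM elsewhere. Most of that excess came from Igf2 alone, at 229 CPM in that library and 72.9 to 87.9 CPM elsewhere. Dcn, Lum, Slc6a13 and Ogn were also highest there, while Col1a1, Col1a2 and Col3a1 were lower there than in both 7-week libraries.

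Of the 35 tested identifiers, 1 rose with age (Pcdhb14), 1 fell (Pcdhb19) and 33 did not pass the threshold. The 2 calls are 5.71% of those tested, against 8.84% of all genes tested, 4.17% called higher and 4.68% called lower. The median log2 fold change of the 35 was -0.15, against 0.01 over all genes. The ages did not overlap in 24 of the 35, against 57.7% of all genes. In 17 both 79-week libraries lay below both 7-week libraries, which was so for 28.7% of all genes, and in 7 they lay above both, which was so for 29.1%. At an unadjusted p under 0.05, 3 identifiers were higher and 10 lower, against 13.2% and 13.5% of all genes, or 26.7% in either direction. With 79-week replicate 1 left out, where choroid plexus markers were high, edgeR's calls were 1 higher and 4 lower (Pcdhb19, Pcdh10, Pcdh17 and Pcdh20). Without 79-week replicate 2 they were again 1 and 4, the lower ones being Pcdhb18, Pcdhb19, Pcdhb22 and Pcdh9, and without either 7-week library none of the 35 was called.

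Pcdhb14 (ENSMUSG00000044043) rose. Its level was 14.6 and 15.5 CPM at 7 weeks, from 235 and 322 reads, and 22.3 and 25.0 CPM at 79 weeks, from 431 and 579 reads. Both aged libraries were above both young ones, and the higher of them was replicate 2, the library with few choroid plexus reads. The rise was 1.57-fold (log2 fold change 0.65, SE 0.10, edgeR adjusted p = 0.0142), with means of 15.1 ± 0.63 CPM at 7 weeks and 23.7 ± 1.91 CPM at 79 weeks (± SD, n = 2 each). Without 79-week replicate 1 the log2 fold change was 0.73 and the call stayed (edgeR adjusted p = 0.000439). With either 7-week library left out the value was 0.60 and 0.69 and was no longer called (edgeR adjusted p = 0.14 and 0.0783).

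Pcdhb19 (ENSMUSG00000043313) fell. Its level was 16.6 and 16.8 CPM at 7 weeks and 12.1 and 11.8 CPM at 79 weeks, from 234 to 349 reads per library. Both aged libraries were below both young ones. The gene fell by 0.48 on the log2 scale (SE 0.11, edgeR adjusted p = 0.0357). This call ended in DESeq2 (adjusted p = 0.135), with library size scaling (edgeR adjusted p = 0.0508), with the replicate number as a block (edgeR adjusted p = 0.0552) and without either 7-week library (edgeR adjusted p = 0.22 and 0.182). Within each library, Pcdhb14 had 0.883 and 0.923 reads per read of Pcdhb19 at 7 weeks and 1.84 and 2.12 at 79 weeks. That ratio does not depend on how libraries are scaled. The pair was picked as the genes called higher and lower in these libraries, so a rise of the ratio was set by that choice. It adds no evidence for either call.

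**Figure D1:**
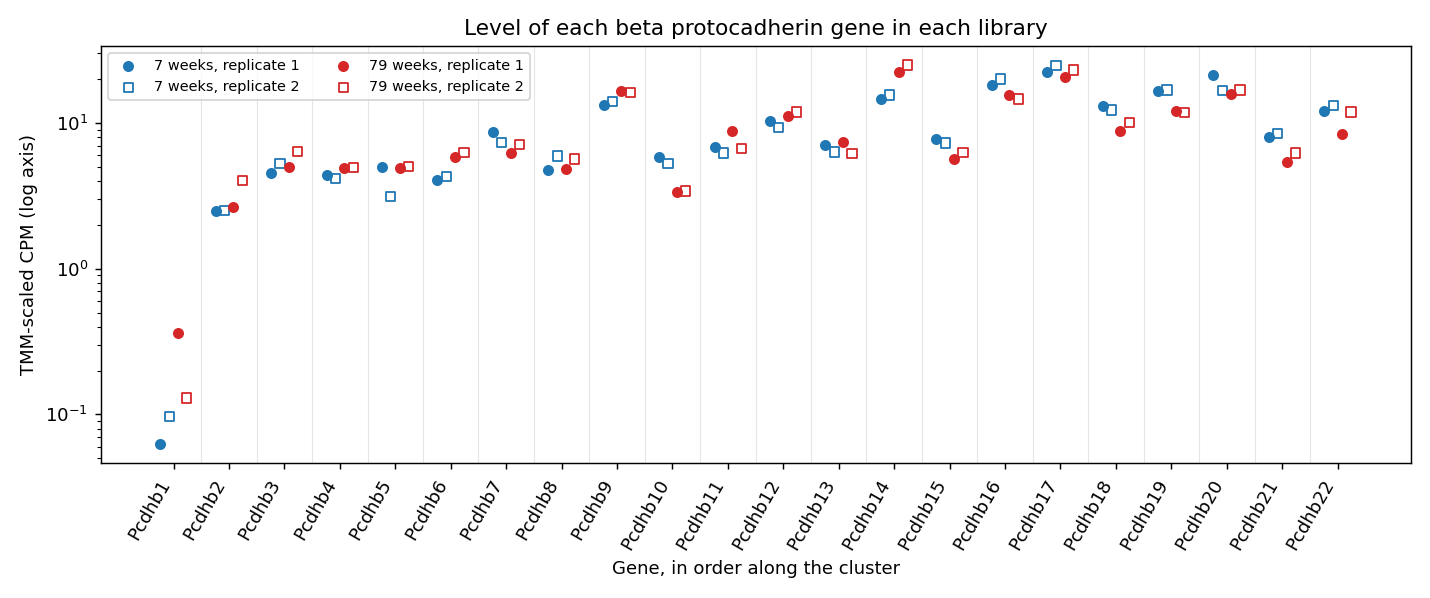
Level of each beta gene in each library, as TMM-scaled CPM on a log axis, with genes in their order along the cluster and 1 point per library. Pcdhb14 is higher in both 79-week libraries (22.3 and 25.0 CPM) than in both 7-week libraries, Pcdhb19 is lower in both, and Pcdhb1 has 1 to 7 reads per library.

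Beta genes lay on both sides of no change. Their summed level was 211 and 209 CPM at 7 weeks and 197 and 210 CPM at 79 weeks, so the ages overlapped. Of 21 tested beta genes, 10 had a positive and 11 a negative fitted log2 fold change, with a median of -0.02 and a range from -0.71 to 0.65. Ages lay apart in 14 of the 21, with 6 above (28.6%) and 8 below (38.1%), near the 29.1% and 28.7% of all genes. These 21 genes held 40 to 579 reads per library.

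Direction went in part with the order of the genes along the cluster, a pattern noticed in these values and given as a description with no test. From Pcdhb2 to Pcdhb14, 10 of 13 genes had a positive log2 fold change, with a median of 0.23. From Pcdhb15 to Pcdhb22, at the end nearer the gamma cluster, all 8 were negative, with a median of -0.34. Of all genes tested, 48.3% had a negative value. The sign changed at several places, as Pcdhb7, Pcdhb8 and Pcdhb10 of the first stretch were negative (-0.27, -0.02 and -0.71). The split was placed by these values after Pcdhb14, past which none was positive, so the counts on each side are not independent of it. Across the 21 genes, order and log2 fold change had a Spearman correlation of -0.61 and a Pearson correlation of -0.60. All 21 points share the same 4 libraries, and genes are not replicates. In each of the 13 alternative fits fixed with the tests, all 8 genes from Pcdhb15 on stayed negative and 9 to 11 of the first 13 were positive. Those fits reuse the libraries whose values placed the split, so they add no evidence for it.

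**Figure D2:**
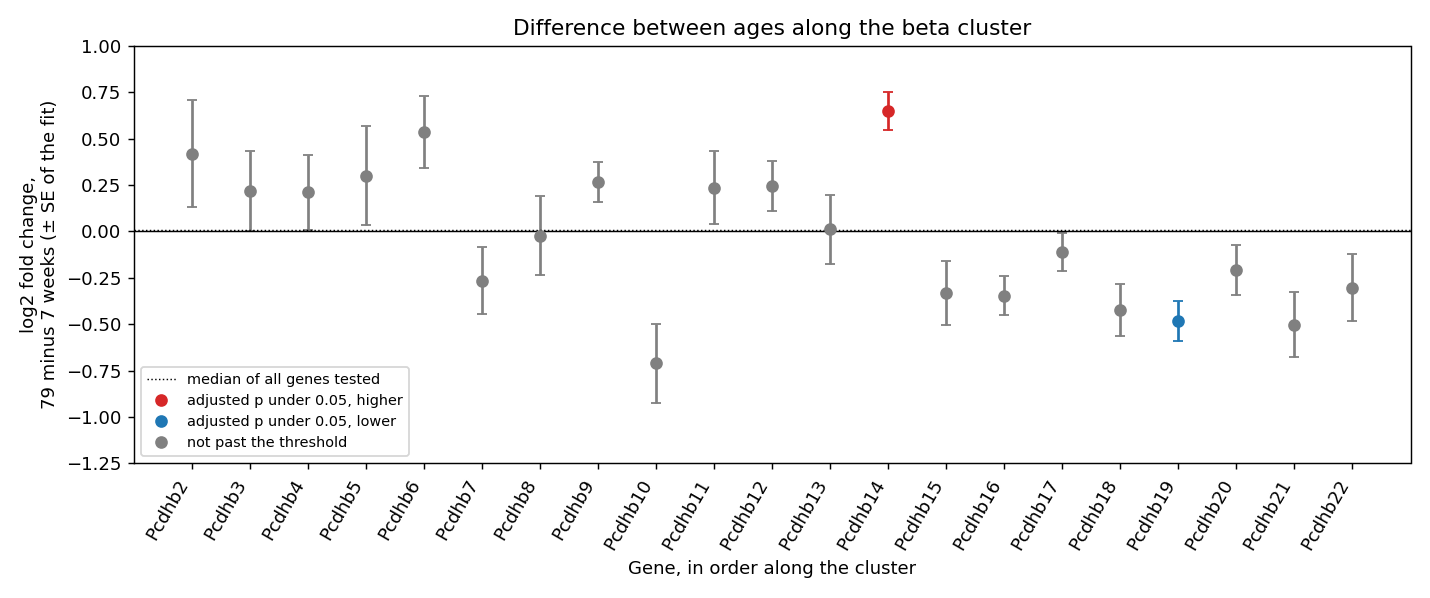
Fitted log2 fold change of the 21 tested beta genes, 79 minus 7 weeks, with bars of 1 SE, in order along the cluster. The dotted line is the median of all genes tested (0.01), and every gene from Pcdhb15 to Pcdhb22 lies below it.

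Among genes of the first stretch with a positive value, Pcdhb6 and Pcdhb9 had the smallest p-values after Pcdhb14. Pcdhb6 stood at 4.05 and 4.29 CPM at 7 weeks and 5.85 and 6.27 CPM at 79 weeks (log2 fold change 0.54, SE 0.20, edgeR adjusted p = 0.129). Pcdhb9 stood at 13.2 and 13.99 CPM and then at 16.7 and 16.1 CPM (0.27, SE 0.11, edgeR adjusted p = 0.16). Neither passed the threshold, though the ages did not overlap in either. The other 79-week values that lay above both 7-week values were those of Pcdhb2, Pcdhb4 and Pcdhb12, with log2 fold changes of 0.42, 0.21 and 0.25. In Pcdhb3, Pcdhb5, Pcdhb8, Pcdhb11 and Pcdhb13 the ages overlapped.

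Pcdhb10 stood out within that stretch with the most negative value of the beta genes. Its level was 5.86 and 5.26 CPM at 7 weeks and 3.37 and 3.41 CPM at 79 weeks (log2 fold change -0.71, SE 0.21, edgeR adjusted p = 0.0802). Its neighbours in the array, Pcdhb9 and Pcdhb11, had values of 0.27 and 0.23. Pcdhb10 held 65 to 109 reads per library, and its call was missed in each of the 13 alternative fits. Pcdhb7, at 8.72 and 7.38 and then 6.27 and 7.09 CPM, was the other gene of the stretch whose aged libraries were both lower (log2 fold change -0.27, edgeR adjusted p = 0.389).

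In the second stretch, 6 of 8 genes had both aged libraries below both young ones, against 28.7% of all genes, a count that the choice of the stretch by sign favours. Pcdhb16 stood at 18.3 and 20.03 CPM at 7 weeks and 15.6 and 14.6 CPM at 79 weeks (log2 fold change -0.35, SE 0.10, edgeR adjusted p = 0.0825). Pcdhb18 went from 13.0 and 12.3 CPM to 8.75 and 10.1 CPM (-0.42, SE 0.14, edgeR adjusted p = 0.102). Pcdhb21 went from 8.04 and 8.49 CPM to 5.44 and 6.22 CPM (-0.50, SE 0.17, edgeR adjusted p = 0.116). These 3 lay closest to the threshold after Pcdhb19 and did not pass it. Pcdhb15 and Pcdhb22 had log2 fold changes of -0.33 and -0.30, and in Pcdhb17 and Pcdhb20 the ages overlapped. Pcdhb17, which had the highest mean CPM of the beta genes, stood at 22.5 and 24.8 CPM at 7 weeks and at 20.7 and 23.1 CPM at 79 weeks.

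Summed over genes, the first stretch stood at 91.8 and 89.3 CPM at 7 weeks and 104 and 109 CPM at 79 weeks. The second stood at 119 in each 7-week library and at 92.4 and 101 CPM at 79 weeks. Reads of the first stretch per read of the second, a ratio within each library, were 0.769 and 0.747 at 7 weeks and 1.13 and 1.08 at 79 weeks. Leaving Pcdhb14 out of the sum gave 0.646 and 0.617 against 0.886 and 0.829, a rise that the choice of the stretches by sign favours. The stretches were defined from these values, so no test is given.

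**Figure D3:**
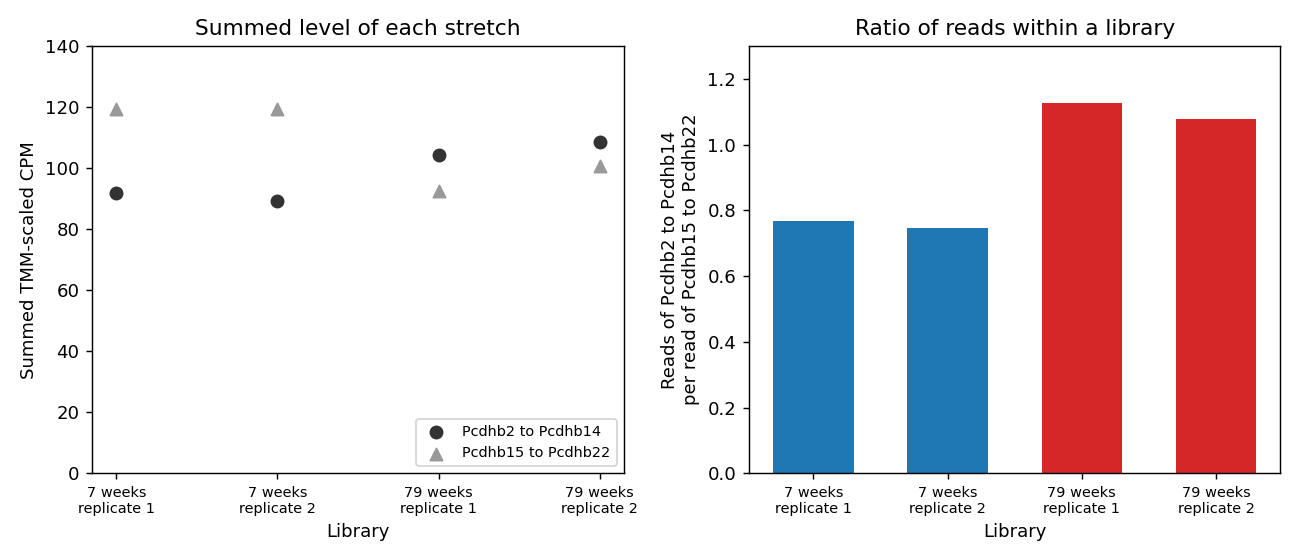
Left, summed TMM-scaled CPM of Pcdhb2 to Pcdhb14 and of Pcdhb15 to Pcdhb22 in each library. Right, reads of the first stretch per read of the second within each library, which were 0.769 and 0.747 at 7 weeks and 1.13 and 1.08 at 79 weeks.

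Pcdhb1, the first gene of the array, was the only identifier with few unique reads, set at under 50 summed over the 4 libraries. It had 1 and 2 reads at 7 weeks and 7 and 3 at 79 weeks, was left out by the filter on low counts, and no difference was detectable at this depth. Beta genes are close copies of each other. Reads with several alignments, which made up 8.02% to 8.25% of the libraries, went uncounted, so each value rests on the parts of a gene that differ from its copies, and reads placed on the wrong copy would mix their values. How much this touched each gene was not tested.

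The alpha identifier stood at 211 and 197 CPM at 7 weeks and 183 and 197 CPM at 79 weeks. The lower 7-week library and the higher 79-week library were nearly equal. Its log2 fold change was -0.10 (SE 0.06, edgeR adjusted p = 0.322), from 3380 to 4565 reads per library. The gamma identifier stood at 912 and 993 CPM at 7 weeks and 969 and 954 CPM at 79 weeks, so the aged libraries lay between the young ones. Its log2 fold change was 0.01 (SE 0.06, edgeR adjusted p = 0.92) from 14637 to 22077 reads. It held most of the protocadherin reads. A shift among single alpha or gamma genes cannot be read from either identifier.

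Among non-clustered genes, delta-2 members were all on the negative side, against 48.3% of all genes tested. Promoters of Pcdh10 and Pcdh17 are shown because these genes carried the most reads of that group. Their aged libraries lay below both young ones, as did those of Pcdh18 and Pcdh19. The sequences are RefSeq's on build GRCm38.p6, plus strand, from 250 bases before to 50 after the annotated start, at chr3:45378148-45378447 and chr14:84443313-84443612. Capitals mark the GC box GGGCGG, read on either strand.
Pcdh10: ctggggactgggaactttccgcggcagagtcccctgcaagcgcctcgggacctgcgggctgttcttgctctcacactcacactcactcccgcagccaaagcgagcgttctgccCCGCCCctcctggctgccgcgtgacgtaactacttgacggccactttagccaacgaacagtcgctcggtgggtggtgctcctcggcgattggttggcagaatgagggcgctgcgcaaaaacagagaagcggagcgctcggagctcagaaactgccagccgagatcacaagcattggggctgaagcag
Pcdh17: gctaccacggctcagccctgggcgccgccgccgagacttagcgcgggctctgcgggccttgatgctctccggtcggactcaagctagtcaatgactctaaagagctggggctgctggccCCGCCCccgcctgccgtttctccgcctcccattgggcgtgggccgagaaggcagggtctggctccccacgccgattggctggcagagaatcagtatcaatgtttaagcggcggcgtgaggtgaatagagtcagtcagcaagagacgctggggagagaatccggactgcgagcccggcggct
Each holds 1 GC box, a motif known as a binding site of Sp1-type factors, and neither holds TATAAA on either strand. GC content was 62.3% for Pcdh10 and 65.0% for Pcdh17, against a median of 52.7% over 32851 promoter windows of the same length, and they held 24 and 26 CpG dinucleotides against a median of 7. Windows were matched for 9 of the 12 non-clustered genes. The GC box was present in 4 of them, Pcdh10, Pcdh17, Pcdh18 and Pcdh19, all delta-2 genes, and in 35.7% of all windows. TATAAA was present in Pcdh8 and Pcdh15 and in 13.6% of all windows. A match is a description of these letters and no evidence of binding.

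Pcdh10, a delta-2 protein that binds the WAVE complex and guides axons, stood at 52.0 and 45.9 CPM at 7 weeks and 39.6 and 38.3 CPM at 79 weeks. Both aged libraries were lower, and the difference just missed the threshold (log2 fold change -0.33, SE 0.09, edgeR adjusted p = 0.0563). It was called lower with robust dispersion estimates (edgeR adjusted p = 0.0335), without a low-count filter (edgeR adjusted p = 0.00306) and without 79-week replicate 1 (edgeR adjusted p = 0.0357). Over the alternatives fixed with the tests the adjusted p ran up to 0.292, reached without 7-week replicate 1, and the value stayed negative in each.

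Pcdh17, a delta-2 protein of synapses and axons, stood at 37.7 and 49.7 CPM at 7 weeks and 37.3 and 29.6 CPM at 79 weeks. The 7-week replicate 1 and the 79-week replicate 1 were nearly equal, while the replicate 2 libraries stood far apart (log2 fold change -0.39, SE 0.15, edgeR adjusted p = 0.151). Without 7-week replicate 2 the log2 fold change was -0.18, and without 79-week replicate 1 it was -0.57. Pcdh17 was called lower without a low-count filter (edgeR adjusted p = 0.000518). Pcdh19, the gene mutated in a female-limited epilepsy, stood at 8.79 and 8.20 CPM and then at 5.54 and 7.48 CPM (log2 fold change -0.38, SE 0.20, edgeR adjusted p = 0.265). Pcdh18 stood at 2.80 and 2.94 CPM and then at 1.71 and 2.12 CPM (-0.58, SE 0.27, edgeR adjusted p = 0.222), from 33 to 61 reads. Pcdh8, also called arcadlin, is induced by neuronal activity. Its ages overlapped, at 2.68 and 3.04 against 3.16 and 2.03 CPM.

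Delta-2 genes summed to 104 and 110 CPM at 7 weeks and 87.3 and 79.5 CPM at 79 weeks, without overlap. Their median log2 fold change was -0.38 against 0.01 over all genes. At an unadjusted p under 0.05 in edgeR, 0 were higher and 2 lower, against 13.2% and 13.5% of all genes. None of the 5 was called (0 higher and 0 lower in edgeR). DESeq2 and limma-voom likewise called 0 of them.

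**Figure D4:**
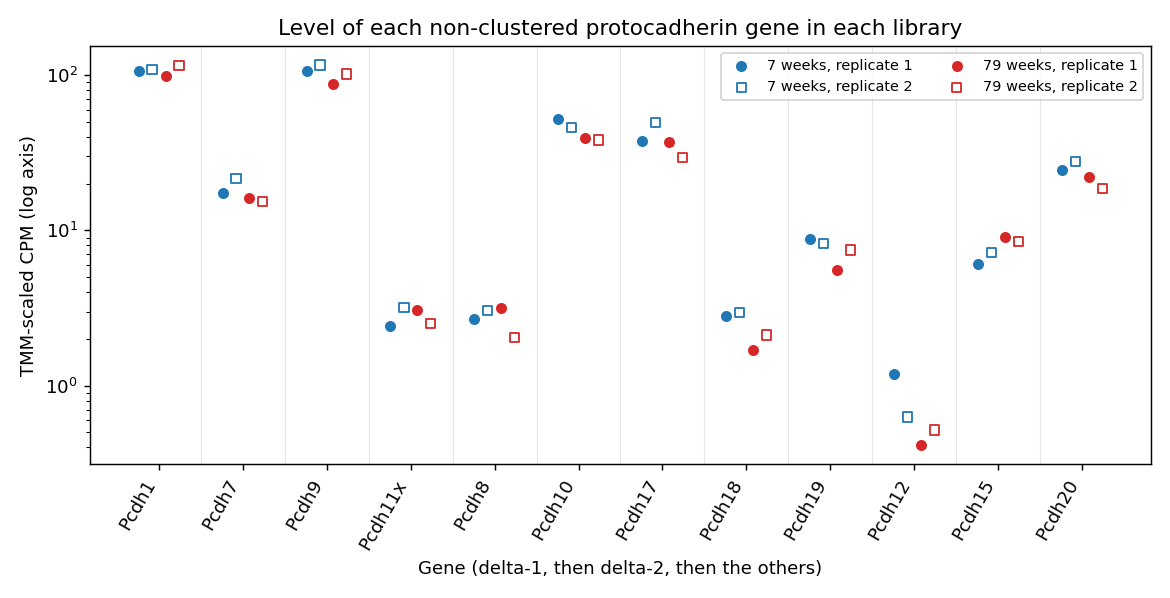
Level of each of the 12 non-clustered genes in each library, as TMM-scaled CPM on a log axis, with 1 point per library. Both 79-week libraries lie below both 7-week libraries in 8 genes and above both in Pcdh15 alone.

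The 4 delta-1 genes had a median log2 fold change of -0.13. Pcdh9, which carried many reads at both ages, stood at 106 and 116 CPM at 7 weeks and 87.4 and 102 CPM at 79 weeks (log2 fold change -0.24, SE 0.08, edgeR adjusted p = 0.122). Pcdh7 stood at 17.5 and 21.6 CPM and then at 16.2 and 15.4 CPM (-0.31, SE 0.12, edgeR adjusted p = 0.158). In both the aged libraries were lower without a call. Pcdh9 was called lower without a low-count filter (edgeR adjusted p = 0.00491) and without 79-week replicate 2 (log2 fold change -0.36, edgeR adjusted p = 0.00834), and Pcdh7 in none of the alternatives fixed with the tests. Pcdh1 had overlapping ages, at 106 and 109 CPM against 99.1 and 115 CPM (log2 fold change -0.01, SE 0.08, edgeR adjusted p = 0.969). Pcdh11x, at 39 to 66 reads per library, had overlapping ages (log2 fold change -0.02, SE 0.27). Both signs turned positive with library size scaling.

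Of the remaining 3 genes, Pcdh15 was the only non-clustered gene on the positive side. It encodes the lower part of the tip link that opens channels in hair cells, and in brain it is expressed by oligodendrocyte precursors. Pcdh15 stood at 6.04 and 7.24 CPM at 7 weeks and 9.12 and 8.47 CPM at 79 weeks (log2 fold change 0.40, SE 0.17, edgeR adjusted p = 0.191). The 7 markers of oligodendrocyte precursors summed to 149 and 171 CPM at 7 weeks and 102 and 123 CPM at 79 weeks. Of the 7, 3 were called lower and 0 higher, against 4.68% and 4.17% of all genes. The members differed among themselves: Gpr17, Neu4 and Olig2 fell by 1.90, 0.99 and 0.66 on the log2 scale. Olig1, the largest part of the sum, went from 63.5 and 68.7 CPM to 42.5 and 61.6 CPM without a call (log2 fold change -0.34). In Pdgfra, C1ql1 and Cspg4 the ages overlapped, with log2 fold changes of 0.08, 0.07 and -0.21. Their part in the Pcdh15 value was not tested. In bulk tissue, fewer cells of a type and less RNA per cell cannot be told apart.

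Pcdh20 stood at 24.4 and 27.9 CPM at 7 weeks and 22.1 and 18.7 CPM at 79 weeks (log2 fold change -0.36, SE 0.12, edgeR adjusted p = 0.0961). Both aged libraries were lower, and the gene was called without 79-week replicate 1 (edgeR adjusted p = 0.016) and missed without 79-week replicate 2 (edgeR adjusted p = 0.21). Pcdh12, a protocadherin of endothelial cells, had 19 and 13 reads at 7 weeks and 8 and 12 at 79 weeks (log2 fold change -0.91, SE 0.50, edgeR adjusted p = 0.295), a difference not detectable at this depth. The 11 markers of endothelial cells and pericytes summed to 264 and 260 CPM at 7 weeks and 251 and 296 CPM at 79 weeks. None was called (0 of 11 in edgeR, DESeq2 or limma-voom), against 8.84% of all genes in edgeR. At an unadjusted p under 0.05, edgeR had 3 of the 11, against 26.7% of all genes. These were Pecam1, Cdh5 and Esam, all higher (log2 fold changes 0.30, 0.29 and 0.42). Cldn5, Flt1, Kdr and Pdgfrb were also positive (0.32, 0.23, 0.12 and 0.03). Tie1, Rgs5, Kcnj8 and Abcc9 were negative (-0.11, -0.15, -0.44 and -0.21). Their part in the Pcdh12 value was not tested.

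In all, 11 of 12 non-clustered genes had a negative log2 fold change, against 48.3% of all genes tested, and their median was -0.32. In 8 of 12 both aged libraries lay below both young ones, against 28.7% of all genes. None was called (0 of 12 in edgeR, DESeq2 or limma-voom). At an unadjusted p under 0.05 in edgeR, 5 were lower and 0 higher, against 13.5% and 13.2% of all genes. Many markers of neurons, but not all, moved the same way. Of 8 granule neuron markers 6 were called lower and 0 higher, and of 8 Purkinje cell markers 4 lower and 0 higher. Of all genes tested, 4.68% were called lower and 4.17% higher. Granule neuron markers not called were Cbln3 and Reln (log2 fold changes -0.20 and -0.02). Purkinje cell markers not called were Pcp2, Slc1a6, Gad2 and Ppp1r17 (-0.04, 0.12, -0.01 and -0.14). Granule neuron markers summed to 6434 and 6277 CPM at 7 weeks and 5204 and 5027 CPM at 79 weeks, and Purkinje cell markers to 10335 and 10253 and then to 8418 and 8663 CPM. Markers of myelinating oligodendrocytes fell in 5 of 8, and those of microglia rose in 5 of 8. Of 7 markers of Bergmann glia and astrocytes 2 rose and 1 fell, and of 3 tested ependymal markers 2 rose. Their part in the protocadherin values was not tested.

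Genes that act with protocadherins were counted from a list of 49, of which 48 matched and 47 were tested. Of these, 1 rose, 7 fell and 39 did not pass the threshold, against 4.17% and 4.68% of all genes called higher and lower. Their median log2 fold change was -0.05. Of 17 genes of promoter choice, cohesin and chromatin, 3 fell. The DNA methyltransferase gene Dnmt3a went from 229 and 215 CPM to 171 and 173 CPM and fell by 0.37 on the log2 scale (SE 0.05, edgeR adjusted p = 0.0108). The cohesin subunit gene Stag2 fell by 0.26 (SE 0.06, edgeR adjusted p = 0.0362), from 144 and 158 to 125 and 127 CPM. The zinc finger gene Wiz fell by 0.21 (SE 0.05, edgeR adjusted p = 0.0466). Ctcf stood at 113 and 119 CPM at 7 weeks and 111 and 116 CPM at 79 weeks, so its ages overlapped (log2 fold change -0.03, SE 0.06, edgeR adjusted p = 0.778).

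Of 14 cytoplasmic partners, 1 rose and 3 fell. Ptk2b encodes the kinase Pyk2, which binds the constant region of alpha and gamma protocadherins and is held back by them. It went from 2.87 and 3.04 CPM to 19.7 and 20.3 CPM, from 46 and 63 reads to 381 and 470. This was a 6.75-fold rise (log2 fold change 2.76, SE 0.14, edgeR adjusted p = 0.00113), beside log2 fold changes of -0.10 and 0.01 for the alpha and gamma identifiers. The kinase gene Fyn fell by 0.28 (SE 0.05, edgeR adjusted p = 0.0188), the WAVE complex gene Abi2 fell by 0.23 (SE 0.05, edgeR adjusted p = 0.0353) and the receptor gene Ret fell by 0.32 (SE 0.08, edgeR adjusted p = 0.0493). The calls of Abi2, Ret and Wiz ended in DESeq2 (adjusted p = 0.0514, 0.139 and 0.0963). With library size scaling they ended too (edgeR adjusted p = 0.0701, 0.0798 and 0.0981), as did that of Stag2 (0.0661). Ret and Wiz also lost their calls with upper-quartile scaling (edgeR adjusted p = 0.0569 for each), in limma-voom (adjusted p = 0.0518 and 0.0611) and with the replicate number as a block (edgeR adjusted p = 0.0606 and 0.0634). Without 79-week replicate 1 the calls of Stag2, Abi2, Ret and Wiz ended (edgeR adjusted p = 0.0643, 0.12, 0.108 and 0.158), and without 79-week replicate 2 that of Wiz ended (0.0745). Without 7-week replicate 2 all 4 of these ended, with those of Fyn and Fat2 (edgeR adjusted p = 0.0762 and 0.0936 for this last pair).

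None of 6 genes of the proteases that cleave protocadherins was called (0 of 6 in edgeR, with 1 at an unadjusted p under 0.05, and 0 in DESeq2 or limma-voom). Adam10, whose product sheds the outer part, stood at 107 and 106 CPM at 7 weeks and 107 and 108 CPM at 79 weeks. Nicastrin, a subunit of the secretase that releases the tail, is encoded by Ncstn, which stood at 75.0 and 71.6 CPM and then at 76.1 and 73.5 CPM. Of 10 tested related cadherins 1 fell. That was Fat2, an atypical cadherin of granule neurons and also on the list of their markers, which went from 1371 and 1289 CPM to 1094 and 1046 CPM and fell by 0.31 on the log2 scale (SE 0.06, edgeR adjusted p = 0.0263). Without 7-week replicate 1, edgeR called 0 genes of the whole table, and 2610 had an unadjusted p under 0.05, so none of the calls given here held in that fit. DESeq2 called 243 genes without that library.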

How the data were processed

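Per the labels, Trizol was used to extract RNA and the Universal Plus mRNA-Seq kit to build the libraries. The authors deposited 1 table per library of unnormalized read counts for Ensembl genes. The submitters' processing notes name cutadapt, STAR, HTSeq and the mouse build mm9, without versions. Strand setting and annotation release were not given in the sources used here. The 5 HTSeq summary lines of each table were left out of totals and tests. Symbols came from a name table matched by Ensembl identifier, and the order of the beta genes from RefSeq's GRCm38.p6 annotation. Gene coordinates on mm9 were not used here.

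Work was done in R 4.3.3 with edgeR 4.0.16. Genes passing filterByExpr, with a minimum count of 10 and a minimum total of 15, were scaled by TMM and compared by the quasi-likelihood test without covariates, as 79 minus 7 weeks. The standard error is the log2 fold change divided by the root of F. The procedure was tested on simulated data that had the same dispersion for every gene, which does not test the single calls given here. Also run were scaling by library size, RLE or upper quartile, no filter or 1 CPM in 2 libraries, DESeq2 1.42.0, limma-voom (limma 3.58.1), robust dispersions, a replicate block and each library left out. Replicates of an age differed by more than counting noise (chi-square per degree of freedom 6.45 at 7 weeks and 18.5 at 79 weeks). The 79-week value includes choroid plexus genes such as Ttr, with 97720 and 50 reads in replicates 1 and 2. Members and lists were chosen with earlier results of these data known. Named genes were called genes, all tested non-clustered genes, the beta genes with the highest CPM and with the most extreme fold changes, up to 10 called partners by smallest adjusted p, and the 2 partners with the highest CPM where a sublist had none called. Other genes were named after their values were seen.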

Additional observations from a re-analysis of the deposited data

How the results depend on the processing

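Among single-gene values under the alternatives, 493 kept direction and side of the threshold, 15 turned sign, 39 lost and 11 gained a call. The count of protocadherins called lower, 1 in the main comparison, was 0 with library size scaling, 0 in DESeq2, 2 with robust dispersion estimates and 5 without a low-count filter, where edgeR called 3051 genes in all against 1352. The count called higher stayed at 1 in each of these. Partners called, 8 in the main comparison, were 4 with library size scaling. The cause was not tested. With single libraries left out in edgeR, 0 to 1 protocadherins were called higher, 0 to 4 lower and 0 to 9 partners, and 0 to 2425 genes in all. With single libraries left out in DESeq2, an alternative chosen after seeing the data, the counts were 0, 0 and 2 to 3. The remaining library of that age then borrows its spread from the other age.

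Replicate numbers were shared between ages with nothing that pairs them, and deviations of same-numbered libraries had a correlation of -0.11. With the replicate block the counts were 1 higher, 0 lower and 6 partners. A crossed replicate block, added after seeing the data, gave 1, 4 and 8.

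Genes near 0 turned sign. With library size scaling the log2 fold change was 0.0476 for Pcdh1, 0.0315 for Pcdhb8 and 0.0305 for Pcdh11x, and with upper-quartile scaling it was 0.00743 for Pcdh1. With single libraries left out it ranged from -0.00778 to 0.658 for Pcdhb5, -0.176 to 0.151 for Pcdhb8, -0.114 to 0.13 for Pcdhb13, -0.0513 to 0.0736 for the gamma identifier Pcdhgc4, -0.126 to 0.0978 for Pcdh1, -0.202 to 0.19 for Pcdh11x and -0.497 to 0.133 for Pcdh8. None of these genes was called in any of these fits.

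Depth limits Pcdhb1, Pcdh12, Pcdh18, Pcdh8 and Pcdh11x, whose reads per library numbered 1 to 66.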
